A study of Mus musculus with 2 samples.

Results

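The Fc receptors described here are 6 genes of 32285 in the count tables: Fcgr1, Fcgr3 and Fcgr4, which encode the activating receptors for immunoglobulin G (IgG), Fcgr2b, which encodes the inhibitory one, Fcer1g, which encodes the signalling gamma chain, and Fcgrt, which encodes the heavy chain of the neonatal Fc receptor. They were taken by name and read in cells with at least 500 unique molecular identifiers (UMIs), at least 250 genes and at most 10% mitochondrial UMIs. The cells were gingival leukocytes of mice with ligature-induced periodontitis, measured with 1 single-cell 3′ RNA library per group. The groups are labelled 10% Tet2-/- BMT and 10% Tet2+/+ BMT, for recipients of a bone marrow transplant that held Tet2-/- or Tet2+/+ donor cells at 10%. In both groups ligatures were placed 12 weeks after the transplant and kept for 5 days. The study's design text gives the sort as CD45.2+ CD11b+ for 10% Tet2-/- BMT and as CD45+ CD11b+ for 10% Tet2+/+ BMT, whereas the title of the 10% Tet2+/+ BMT sample names CD45.2 as well. The labels name neither the age and strain of the mice, nor the rest of the transplanted marrow, nor how many animals were pooled in a library. The libraries are called the Tet2-/- library and the Tet2+/+ library from here on.

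IgG receptors let leukocytes sense antibody bound to microbes or to tissue. The activating receptors pair with the gamma chain, whose ITAM motif is phosphorylated by Src kinases and recruits Syk, which starts phagocytosis, the oxidative burst and cytokine release. Fcgr2b carries an inhibitory ITIM motif that recruits the phosphatase SHIP1, and the balance of both kinds on 1 cell sets its threshold for immune complexes. The neonatal receptor works inside endosomes, where it protects IgG from breakdown and, in antigen-presenting cells, routes immune complexes to presentation.

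Fcgr2b, Fcgr4, Fcgr3 and Fcer1g lie on mouse chromosome 1 (GENCODE M21 on GRCm38), from 170958617 to 170976547 on the minus strand, 171018920 to 171029761 on the plus strand, 171051174 to 171064935 on the minus strand and 171229572 to 171234365 on the minus strand. Fcgr1 lies on chromosome 3 from 96282909 to 96293969, and Fcgrt on chromosome 7 from 45092990 to 45103851, both on the minus strand. Fcgr2b and Fcgr3 share 264 words of 25 bases over their whole transcripts, 19.96% of those of Fcgr3, but 0 in the last 500 bases, from which a 3′ library is mostly counted. No other pair of the 6 shares any. Antisense genes overlap Fcgr2b (Gm38204) and Fcgrt (Gm45669), and the sources used here do not state the strand setting of the counting.

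The 250 bases upstream of the RefSeq start (GRCm38.p6, gene strand, 5′ to 3′) are shown for the 4 IgG-binding receptors, because Fcgr1 and Fcgr4 were highest among neutrophil clusters in the interferon-signature one and because Fcgr1, Fcgr2b and Fcgr3 were each lower in monocyte-like cells of the Tet2-/- library with an interval below 1. Capitals mark 3 motifs searched on both strands: the PU.1 core GAGGAA, the GAS element TTCNNNGAA and the interferon-stimulated response element, a repeat of GAAA with any 2 bases between. The sequences are Fcgr1 at chr3:96293970-96294219 (minus), Fcgr4 at chr1:171018676-171018925 (plus), Fcgr3 at chr1:171059404-171059653 (minus, the first of 2 listed starts) and Fcgr2b at chr1:170976072-170976321 (minus).
Fcgr1: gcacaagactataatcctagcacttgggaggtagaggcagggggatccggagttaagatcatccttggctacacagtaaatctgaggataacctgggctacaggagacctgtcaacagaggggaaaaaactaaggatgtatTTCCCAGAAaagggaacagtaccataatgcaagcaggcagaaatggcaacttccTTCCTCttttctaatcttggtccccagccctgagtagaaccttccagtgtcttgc
Fcgr4: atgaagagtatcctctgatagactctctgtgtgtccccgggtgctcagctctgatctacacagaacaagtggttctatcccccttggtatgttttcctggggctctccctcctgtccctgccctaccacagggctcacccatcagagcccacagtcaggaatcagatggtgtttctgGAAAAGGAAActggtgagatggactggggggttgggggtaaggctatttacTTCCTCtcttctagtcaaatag
Fcgr3: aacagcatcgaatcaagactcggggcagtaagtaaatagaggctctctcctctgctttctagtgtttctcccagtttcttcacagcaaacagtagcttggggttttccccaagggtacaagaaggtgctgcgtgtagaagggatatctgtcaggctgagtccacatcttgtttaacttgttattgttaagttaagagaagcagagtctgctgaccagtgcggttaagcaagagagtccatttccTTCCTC
Fcgr2b: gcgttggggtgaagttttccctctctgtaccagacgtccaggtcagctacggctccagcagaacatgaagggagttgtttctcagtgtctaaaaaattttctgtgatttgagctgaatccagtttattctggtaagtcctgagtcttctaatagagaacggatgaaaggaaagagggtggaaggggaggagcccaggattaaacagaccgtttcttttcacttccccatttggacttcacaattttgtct
Each activating receptor had 1 PU.1 core, 55 bases before the start in Fcgr1, 22 in Fcgr4 and 6 in Fcgr3. Fcgr1 also had 1 GAS element, TTCCCAGAA, 109 bases before the start, and Fcgr4 had 1 interferon-type element, GAAAAGGAAA, 73 bases before it. The Fcgr2b window held none of these motifs, nor did the windows of Fcer1g and Fcgrt, which are not shown. Of 32841 windows of this length, 23.3% held a PU.1 core, 7.02% a GAS element and 2.98% an interferon-type element. These matches are letters in a window, not evidence of binding.

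Kept cells numbered 9596 in the Tet2-/- library and 11672 in the Tet2+/+ library, with 85289763 and 87908757 UMIs and medians of 5920 and 5009 UMIs per cell. Cell types were clusters built without the 6 genes and named from marker lists: 9 named classes had at least 50 cells in both libraries, and 5 of 26 clusters stayed unnamed. The classes were neutrophil-like (4186 and 5085 cells), immature neutrophil-like (973 and 802), monocyte-like (977 and 822), non-classical monocyte-like (256 and 364), macrophage-like (800 and 856), dendritic cell-like (271 and 249), B cell-like (354 and 568), T cell-like (200 and 316) and NK cell or ILC-like (88 and 178 cells). Lymphoid classes were thus present although the sort was on CD11b, a myeloid marker. Levels are in CPM (the counts-per-million scale, UMIs of a gene over all UMIs of the same cells). Tet2 itself had 97.8 CPM in the Tet2-/- library and 81.7 CPM in the Tet2+/+ library, but the labels do not name the deleted part of the gene, so 3′ counts check nothing about the genotype. Xist was seen in 905 of 977 monocyte-like cells of the Tet2-/- library without Y-linked transcripts, and in 0 of 822 of the Tet2+/+ library. Genotype, sort, sex-linked transcripts and library cannot be told apart between the groups, and with 1 library per group no test is possible. Intervals below are exact 95% intervals of counting error alone, Poisson for CPM and binomial for shares and ratios. Free RNA, estimated at 490 and 409 UMIs per cell from the Fcer1g counts of the B cell-like cluster led by Cd79a, and doublets were left in the data. In neutrophil-like cells that estimate is too high for some genes, since it exceeds the counts seen of Fcgr1 and Fcgrt in the Tet2-/- library, so it gives no background share there. The libraries shared 31 cell barcodes among kept cells, 0.323% of the Tet2-/- and 0.266% of the Tet2+/+ cells.

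Fcgr1, the high-affinity receptor, was highest in macrophage-like cells in both libraries. Macrophage-like cells had 193 CPM (184 to 202) in the Tet2-/- library and 274 CPM (263 to 286) in the Tet2+/+ library. Monocyte-like cells came next, with 46.6 CPM (43.4 to 50.01) and 80.6 CPM (75.7 to 85.8). T cell-like, non-classical monocyte-like and dendritic cell-like cells followed with 19.4 to 38.5 CPM in the Tet2-/- library and 39.3 to 46.2 CPM in the Tet2+/+ library, and their order differed between the libraries. Markers of macrophages summed to 6179 and 3508 CPM in T cell-like cells, against 50556 and 41656 CPM in the macrophage-like cluster led by C1qa, and the part of such RNA in the T cell-like level was not tested. Neutrophil-like cells had 1.62 CPM in the Tet2-/- library and 6.58 CPM in the Tet2+/+ library. The free RNA estimate was 260% and 67.3% of those counts, more than was seen in the Tet2-/- library.

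Fcgr3, the low-affinity activating receptor that myeloid cells share, had a higher level than the other 3 IgG receptors in each of the 9 classes of both libraries except dendritic cell-like cells, where Fcgr2b was higher. In B cell-like cells this came from the cluster led by Ebf1, with 184 and 278 CPM. The cluster led by Cd79a had 20.6 and 34.2 CPM of Fcgr3, below its 73.7 and 78.1 CPM of Fcgr2b. Fcgr3 had 417 CPM (403 to 430) in macrophage-like cells of the Tet2-/- library and 454 CPM (440 to 469) in those of the Tet2+/+ library. Neutrophil-like cells followed with 339 CPM (331 to 348) and 453 CPM (445 to 462), below macrophage-like cells in the Tet2-/- library and within counting error of them in the Tet2+/+ library. Monocyte-like cells had 239 and 339 CPM and non-classical monocyte-like cells 215 and 303 CPM. Immature neutrophil-like cells had 148 and 157 CPM, while dendritic cell-like cells, B cell-like cells and the other lymphoid classes had 77.8 to 110 CPM in the Tet2-/- library and 108 to 152 CPM in the Tet2+/+ library.

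Fcgr4, the activating receptor for IgG2a and IgG2b, was highest in non-classical monocyte-like cells, at 208 CPM (192 to 224) in the Tet2-/- library and 222 CPM (208 to 237) in the Tet2+/+ library. Macrophage-like cells had 113 and 143 CPM and neutrophil-like cells 77.8 and 127 CPM, lower than macrophage-like cells in both libraries. Classical monocyte-like cells had little of it, 25.1 CPM in the Tet2-/- library and 27.6 CPM in the Tet2+/+ library. In the non-classical class Fcgr4 and Fcgr3 made up 39.9% and 41.4% of the UMIs of the 4 IgG receptors in the Tet2-/- library, and 32.7% and 44.7% in the Tet2+/+ library.

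Fcgr2b, the inhibitory receptor, had its highest class level in macrophage-like cells, at 284 CPM (273 to 296) in the Tet2-/- library and 313 CPM (301 to 325) in the Tet2+/+ library. Monocyte-like cells had 120 and 192 CPM and dendritic cell-like cells 111 and 183 CPM, with intervals that overlapped in each library. B cell-like cells had 71.5 and 77.5 CPM. Neutrophil-like cells had the least, 15.4 CPM (13.7 to 17.2) and 19.3 CPM (17.6 to 21.1), and the free RNA estimate was 58.9% and 35.1% of those counts. Among the unnamed clusters, the one led by Arg1, with 316 and 77 cells, had 482 CPM of Fcgr2b in the Tet2-/- library and 386 CPM in the Tet2+/+ library, more than any named class.

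Fcer1g, the gamma chain, was the most abundant of the 6 genes in every class. Macrophage-like cells had 2592 CPM in the Tet2-/- library and 2696 CPM in the Tet2+/+ library, and non-classical monocyte-like cells 2615 and 2646 CPM, with intervals that overlapped in each library. NK cell or ILC-like cells had 2185 and 2200 CPM, close to monocyte-like cells at 2124 and 2367 CPM and neutrophil-like cells at 2067 and 2056 CPM. NK cells are known to use this chain with their own activating receptors. The lowest class was B cell-like, at 773 and 872 CPM, and its 2 clusters differed widely. The cluster led by Cd79a had 183 and 166 CPM, against 1328 and 1629 CPM in the cluster led by Ebf1. All 12 neutrophil markers were seen in both, with summed levels of 5156 and 7436 CPM in the first and 64910 and 88300 CPM in the second, and the part of neutrophil doublets was not tested.

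Fcgrt ran a different course and was highest in dendritic cell-like cells, at 121 CPM (111 to 132) in the Tet2-/- library and 122 CPM (112 to 133) in the Tet2+/+ library. Macrophage-like cells had 93.8 and 88.3 CPM and non-classical monocyte-like cells 48.0 and 54.4 CPM. Neutrophil-like cells had 1.11 and 2.90 CPM, and the free RNA estimate was 270% and 66.5% of those counts. Dendritic cell-like, macrophage-like and non-classical monocyte-like cells kept this order in both libraries, with no overlap of their intervals.

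**Figure D1:**
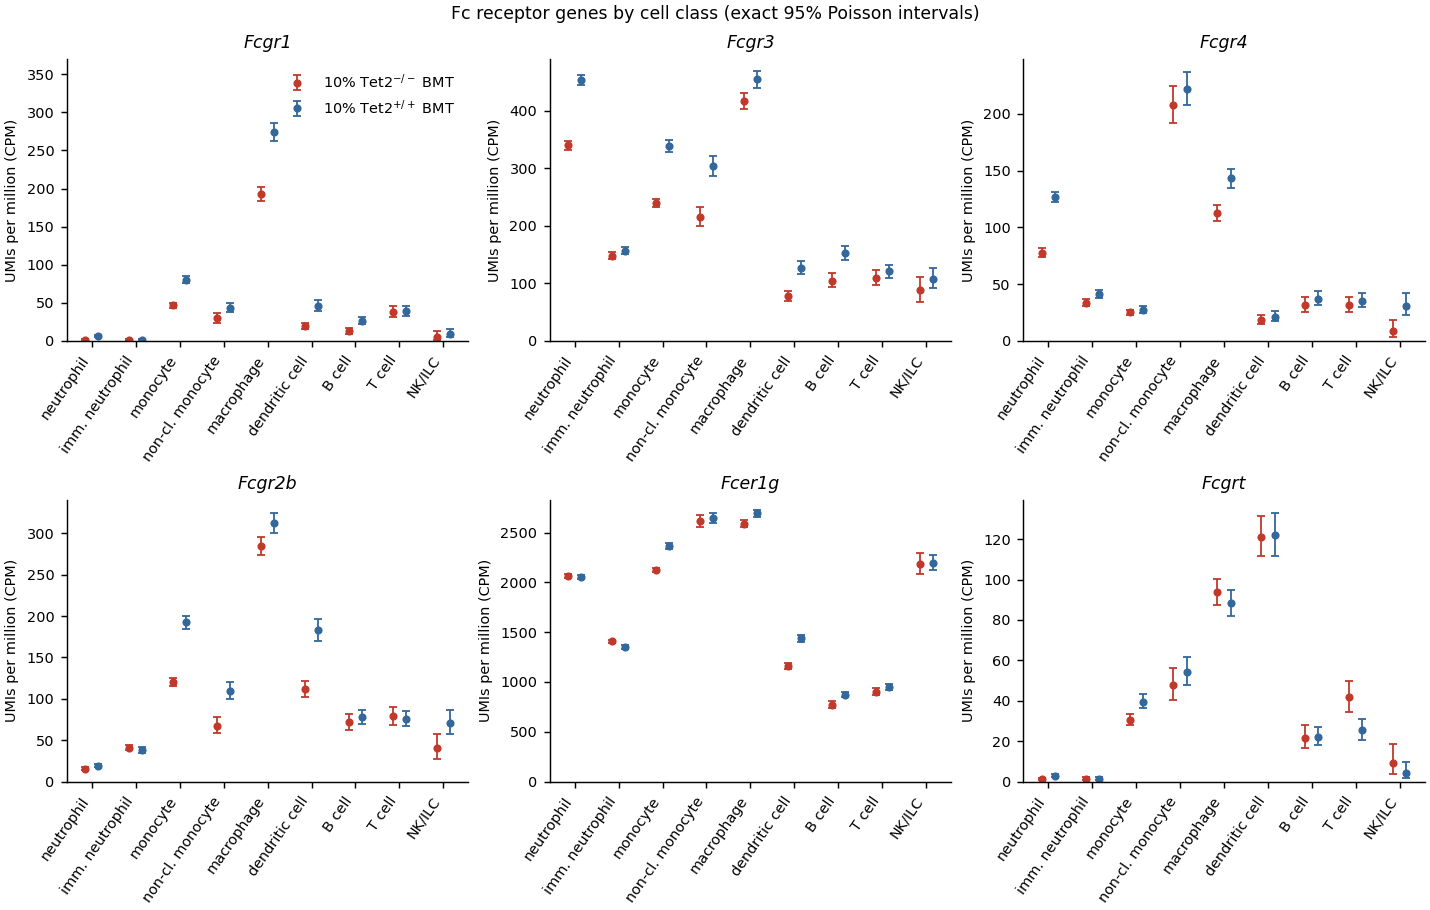
Each panel plots 1 gene in CPM (y axis, linear from 0) over the 9 named classes (x axis), with the Tet2-/- library left of the Tet2+/+ library and exact 95% Poisson intervals. Fcgr1 and Fcgr2b peak in macrophage-like cells, Fcgr4 in non-classical monocyte-like cells and Fcgrt in dendritic cell-like cells, while Fcer1g is at least 773 CPM in all 9.

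With every cell thinned to 500 UMIs, shares of cells with a UMI gave the same leading class as CPM for all 6 genes; at 2000 UMIs Fcer1g led in non-classical monocyte-like cells instead of macrophage-like cells. At 500 UMIs Fcgr3 was seen in 16.0% of neutrophil-like cells (14.9% to 17.2%) of the Tet2-/- library and in 20.5% (19.4% to 21.6%) of the Tet2+/+ library. As sequenced, at medians of 4081 and 3999 UMIs, those shares were 69.3% and 79.7%. The B cell-like cluster led by Cd79a, which should lack Fcgr3, had 0.858% and 1.28% at 500 UMIs, and 9.44% and 13.1% as sequenced, at medians of 4622 and 4580 UMIs. Fcgr1 was seen at 500 UMIs in 64 of 800 macrophage-like cells of the Tet2-/- library and 93 of 856 of the Tet2+/+ library, and in 0.167% and 0.452% of neutrophil-like cells. For the same B cell-like cluster Fcgr1 was seen in 0 of 233 cells, which allows up to 1.29%, and in 0.769%. At this depth the neutrophil shares over the whole class could thus not be told from background. Of the 159 Fcgr1 UMIs of neutrophil-like cells of the Tet2+/+ library, 98 were in the cluster led by Ifit1. Its level was 34.4 CPM, above the free RNA estimate of 4.96 CPM. Fcgr2b was seen at 500 UMIs in 11.8% and 10.9% of macrophage-like cells, and in 0.597% and 0.806% of neutrophil-like cells. The macrophage-like shares include the 201 and 317 cells of the cluster led by Ccl8, whose summed neutrophil markers exceeded its macrophage markers.

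At 2000 UMIs per cell both kinds of receptor could be looked for in 1 cell. An activating receptor without Fcgr2b was seen in 50.9% of neutrophil-like cells of the Tet2-/- library and in 64.4% of the Tet2+/+ library, whereas both kinds were seen in 1.61% and 2.44%. Macrophage-like cells had both in 26.9% and 31.5%. Monocyte-like cells had both in 10.9% (105 of 963 cells) of the Tet2-/- library and in 21.8% (178 of 815 cells) of the Tet2+/+ library. Dendritic cell-like cells had Fcgr2b without an activating receptor in 15.1% and 17.4%. They had an activating receptor alone in 12.5% and 19.4%, with intervals that overlapped those of Fcgr2b alone in each library. Neither kind was seen in 67.9% and 54.5% of dendritic cell-like cells, and in 46.4% and 32.3% of neutrophil-like cells. As sequenced, Fcgr2b was seen in 165 of 271 and 162 of 249 dendritic cell-like cells. A receptor not seen at this depth can thus still be present in the cell, and free RNA and doublets were left in.

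The balance, taken as summed Fcgr1, Fcgr3 and Fcgr4 UMIs per Fcgr2b UMI within a class and library, spanned more than an order of magnitude between classes. Neutrophil-like cells had 27.2 activating UMIs per Fcgr2b UMI (24.3 to 30.6) in the Tet2-/- library and 30.4 (27.7 to 33.4) in the Tet2+/+ library. These rest on 305 and 466 Fcgr2b UMIs, and the free RNA estimate was 58.9% and 35.1% of them. Both planned free RNA subtractions left no Fcgr2b there, so the intervals leave out an unknown share of background. Non-classical monocyte-like cells had 6.70 and 5.19, and immature neutrophil-like cells 4.47 and 5.24. Monocyte-like cells had 2.59 and 2.33 and macrophage-like cells 2.54 and 2.79. Dendritic cell-like cells stood at 1.04 (0.923 to 1.18) and 1.06 (0.963 to 1.18), with as many inhibitory as activating UMIs within counting error. Because UMIs of different genes are captured with different efficiency, the ratio ranks classes and does not give receptor numbers.

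Within classes the balance differed by cluster. The B cell-like cluster led by Cd79a had 0.430 in the Tet2-/- library and 0.737 in the Tet2+/+ library, both below 1, and the one led by Ebf1 had 3.74 and 5.02. Among macrophage-like cells the cluster led by C1qa had 2.44 and 2.64, and the cluster led by Ccl8 5.54 and 6.54. Summed neutrophil markers, all 12 seen in both clusters, were 137116 and 144301 CPM in the Ccl8 cluster against 12253 and 15481 CPM in the C1qa cluster, and summed macrophage markers 27773 and 28668 CPM against 50556 and 41656 CPM. The part of neutrophil RNA in that balance was not tested. The unnamed cluster led by Arg1 had 0.886 (Tet2-/-) and 1.02 (Tet2+/+), and the one led by Siglecf 25.1 and 30.1, close to neutrophil-like cells.

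**Figure D2:**
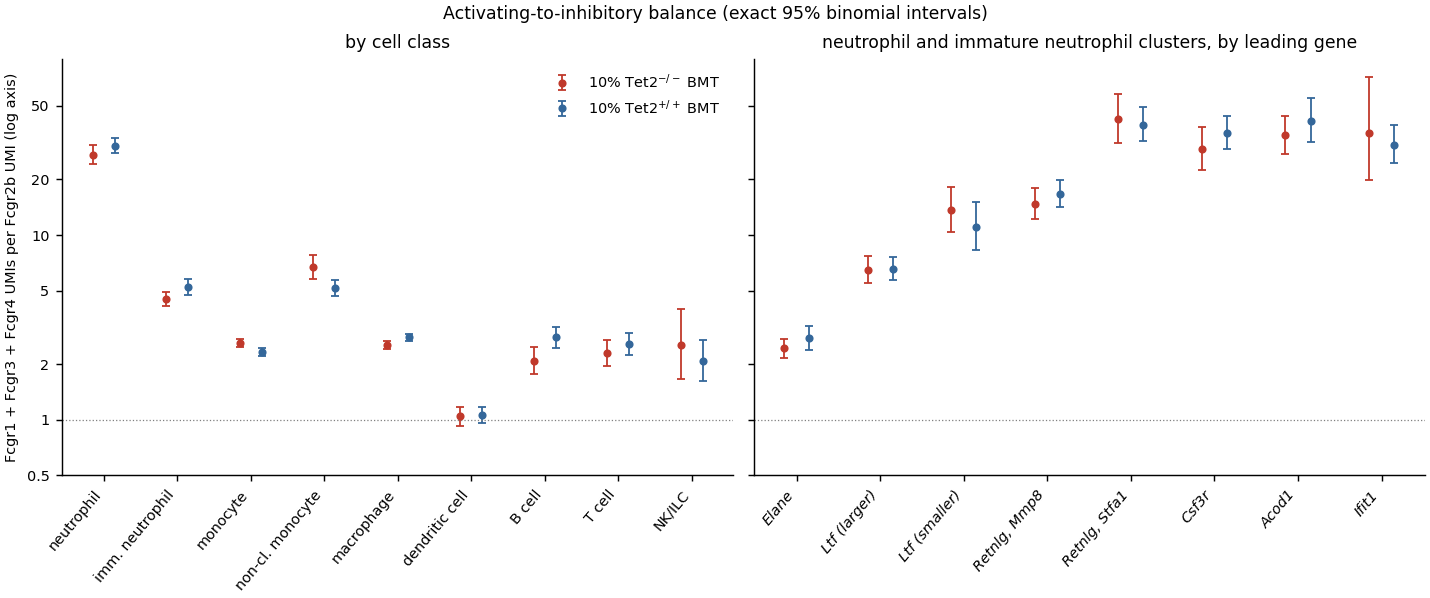
Activating UMIs (Fcgr1, Fcgr3 and Fcgr4) per Fcgr2b UMI are plotted on a log axis by named class (left) and by neutrophil and immature neutrophil cluster (right), with the Tet2-/- library left of the Tet2+/+ library and exact 95% binomial intervals. The ratio is near 1 in dendritic cell-like cells and near 30 in neutrophil-like cells, and it is lowest among the granulocyte clusters in the one led by Elane.

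Clusters with genes of mature neutrophils had more Fcgr3 and Fcgr4 and less Fcgr2b as a share of their UMIs than those with primary-granule genes. Per cell the direction of both activating receptors turned between the Elane and Csf3r clusters. The Elane cluster, with medians of 24848 and 25695 UMIs, had 2.56 and 2.60 Fcgr3 UMIs per cell, and the Csf3r cluster, with 3394 and 3351 UMIs, had 1.26 and 1.77. Fcgr4 UMIs per cell were 0.417 and 0.527 in the Elane cluster, and 0.312 and 0.496 in the Csf3r cluster. That pair does not stand for all clusters. The smaller cluster led by Ltf had more Fcgr3 per cell than the Elane cluster, with 591 and 450 UMIs in 186 and 105 cells. The cluster led by Retnlg and Mmp8 had more Fcgr4 per cell than it, with 379 and 563 UMIs in 683 and 692 cells. Fcgr3 was 106 CPM in the Tet2-/- library and 105 CPM in the Tet2+/+ library in the cluster led by Elane, the primary-granule protease. In the larger and smaller clusters led by Ltf, the secondary-granule protein lactoferrin, it was 172 and 230 CPM in the Tet2-/- library and 166 and 289 CPM in the Tet2+/+ library. It was 253 and 311 CPM in the cluster led by Retnlg and Mmp8, 334 and 421 CPM in that led by Retnlg and Stfa1, 355 and 503 CPM in that led by Csf3r, and 414 and 629 CPM in that led by Acod1 and Cxcl2. The last 3 clusters have no set order among themselves, and each had more Fcgr3 than the clusters led by Elane and Ltf in both libraries.

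Fcgr2b went the other way, with 51.6 CPM in the Tet2-/- library and 46.2 CPM in the Tet2+/+ library in the cluster led by Elane. In the larger cluster led by Ltf it was 33.5 and 33.3 CPM, and in the smaller one 21.8 and 31.5 CPM. The Retnlg and Mmp8 cluster had 22.1 and 24.4 CPM, and the Csf3r cluster 15.3 and 18.1 CPM. The clusters led by Acod1 and Ifit1 had 14.1 and 15.1 CPM in the Tet2-/- library, and 18.0 and 26.3 CPM in the Tet2+/+ library. The lowest was that led by Retnlg and Stfa1, at 9.63 and 13.4 CPM. The free RNA estimate was 3.46% and 2.81% of the Fcgr2b counts in the Elane cluster, and 91.6% and 49.9% in the Retnlg and Stfa1 cluster. In the Tet2-/- cells of that cluster the same estimate was 390% of the Fcgr1 counts, so the background share of Fcgr2b there is not known. The balance was 2.43 and 2.77 in the Elane cluster, 6.46 and 6.58 in the larger Ltf cluster, 13.6 and 11.1 in the smaller one, and 14.8 and 16.7 in the Retnlg and Mmp8 cluster. In the other 4 clusters it was 29.1 to 42.3 in the Tet2-/- library and 30.8 to 41.6 in the Tet2+/+ library.

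Fcgr4 and Fcgr1 were highest among these clusters in the one led by Ifit1, whose leading genes Rsad2, Isg15 and Ifit3 are interferon-stimulated. It held 187 cells of the Tet2-/- library and 671 of the Tet2+/+ library. Fcgr4 was 146 CPM (120 to 177) in the Tet2-/- library and 228 CPM (211 to 246) in the Tet2+/+ library. Fcgr1 was seen with 4 UMIs, 5.47 CPM (1.49 to 14.0), in the Tet2-/- library and with 98 UMIs, 34.4 CPM (27.9 to 41.9), in the Tet2+/+ library. The free RNA estimate was 5.09 and 4.96 CPM, within the interval in the Tet2-/- library and below it in the Tet2+/+ library, and the ratio of the libraries was 0.159 (0.0425 to 0.420).

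**Figure D3:**
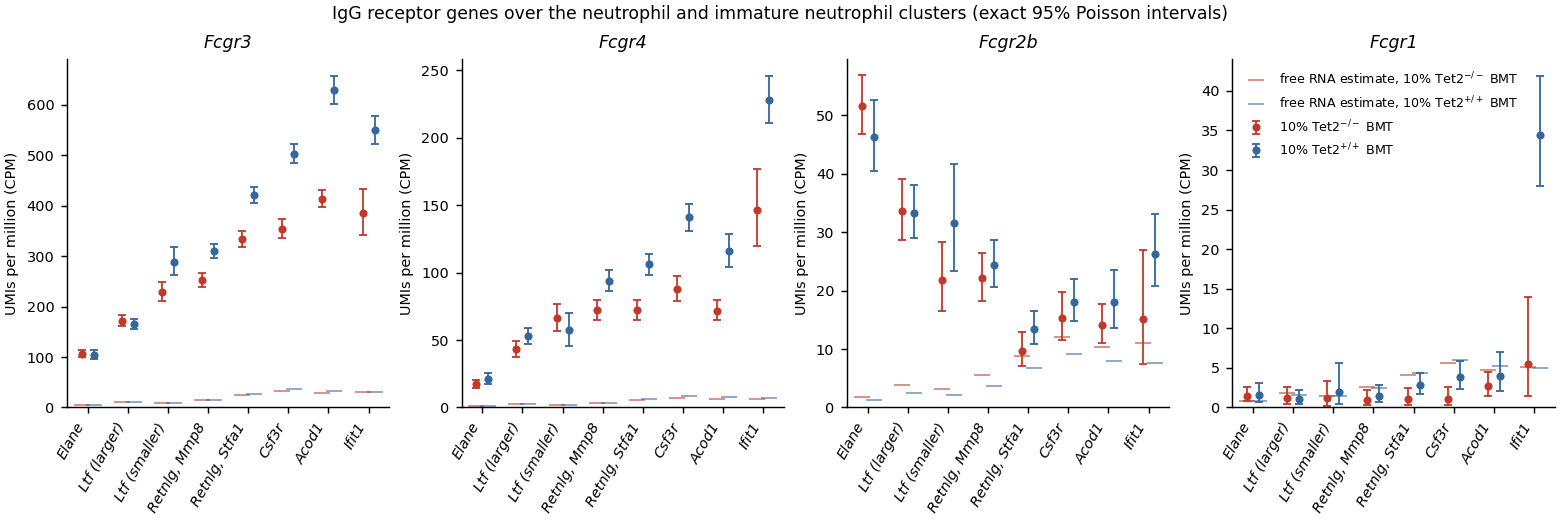
Levels in CPM (linear y axes from 0) of Fcgr3, Fcgr4, Fcgr2b and Fcgr1 are plotted over 8 immature neutrophil-like and neutrophil-like clusters named by leading genes, with the Tet2-/- library left of the Tet2+/+ library and exact 95% Poisson intervals. Short dashes mark the level estimated for free RNA, which for Fcgr1 exceeds the level seen in several clusters, while the 34.4 CPM of Fcgr1 in the Ifit1 cluster of the Tet2+/+ library lie above it.

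Between the libraries, the receptors that bind IgG were lower in the Tet2-/- library in several myeloid classes, but not in every myeloid cluster. Over the 9 named classes, ratios of the gamma chain, from 0.806 to 1.04, and eligible ratios of Fcgrt, from 0.882 to 1.06, stayed inside the size rule. Of 54 gene and class pairs, 33 were eligible with at least 50 CPM in either library and 100 UMIs over both. In 7 of them the Tet2-/- level was lower by at least 1.5-fold on log2(CPM + 10), in 0 it was higher by that much, and 26 lay between. Over all 24305 eligible gene and class pairs of the 9 classes, 1.56% were lower and 1.68% higher by the same rule. No Fcer1g or Fcgrt pair was among the 7. Fcgrt was eligible only in non-classical monocyte-like, macrophage-like and dendritic cell-like cells. Where not eligible, it was lower in monocyte-like cells, with a ratio of 0.773 (0.682 to 0.877). In the monocyte-like cluster led by Fn1 its ratio was 0.726, beside 0.751 for Fcgr3. The neutrophil-like ratio was 0.383, on 22 and 70 UMIs. The T cell-like ratio was 1.65, with an interval above 1. Intervals in the other classes that were not eligible included 1.

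In neutrophil-like cells Fcgr4 was 77.8 CPM in the Tet2-/- library and 127 CPM in the Tet2+/+ library, 1.63-fold lower (1.53 to 1.73), where 2.34% of 2181 eligible genes were lower by the same rule. Fcgr3, at 339 and 453 CPM, was 1.34-fold lower (1.30 to 1.38), short of the rule, and Fcer1g had a ratio of 1.01 (0.992 to 1.02). Both Fcgr3 and Fcgr4 were lower with an interval below 1 in 5 of 5 neutrophil-like clusters, by 1.23- to 1.52-fold for Fcgr3 and by 1.30- to 1.62-fold for Fcgr4. The unnamed clusters led by Siglecf and Obp1a also scored highest for the neutrophil list. Their Fcgr3 ratios were 0.652 (0.599 to 0.709) and 0.711 (0.626 to 0.807). For Fcgr4 they were 0.832 (0.671 to 1.02) and 0.781 (0.609 to 1.001), with intervals that included 1. Among Y-carrying cells of both libraries, 175 and 2760 neutrophil-like cells, the log2 ratios were -0.015 for Fcgr3, -0.36 for Fcgr4 and 0.32 for Fcer1g, against -0.41, -0.64 and 0.01 over all cells. Median-of-ratios and TMM scaling moved the median of this class by 0.17 on the log2 scale, and Fcgr4 then fell short of the rule, at log2 ratios of -0.48 under both, against -0.64.

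In monocyte-like cells Fcgr1 was 46.6 CPM in the Tet2-/- library and 80.6 CPM in the Tet2+/+ library, 1.73-fold lower (1.57 to 1.90). Fcgr2b, at 120.0 and 192 CPM, was 1.602-fold lower (1.51 to 1.70), and 1.22% of 2946 eligible genes were lower by the rule. Fcgr3, at 239 and 339 CPM, was 1.42-fold lower (1.36 to 1.48). The class holds a cycling cluster led by Stmn1, with 284 cells in the Tet2-/- library and 144 in the Tet2+/+ library, in which Fcgr1 was 28.6 and 35.5 CPM and Fcgr2b 86.4 and 94.2 CPM. Without it, in the cluster led by Fn1, Fcgr1 was 62.2 and 101 CPM, 1.62-fold lower (1.46 to 1.81), and Fcgr2b was 149 and 236 CPM, 1.58-fold lower (1.48 to 1.70). Among Y-carrying cells of both libraries, 11 and 665 cells, the log2 ratios were 0.067 for Fcgr1 and 0.23 for Fcgr2b, on the other side of 0.

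Non-classical monocyte-like cells had 67.5 CPM of Fcgr2b in the Tet2-/- library and 110 CPM in the Tet2+/+ library, 1.62-fold lower (1.38 to 1.92), where 1.32% of 2948 genes were lower by the rule. Their Fcgr4 level, their hallmark receptor, differed by 1.07-fold (0.967 to 1.19) and was within counting error, but its log2 ratio of -0.09 was -0.94 among Y-carrying cells and -0.76 with each cell thinned to 500 UMIs. In dendritic cell-like cells Fcgr3 was 77.8 and 127 CPM, 1.64-fold lower (1.43 to 1.87), and Fcgr2b 111 and 183 CPM, 1.64-fold lower (1.47 to 1.84), where 1.13% of 2645 genes were lower. Among Y-carrying cells Fcgr2b turned to log2 ratios of 0.11 in non-classical monocyte-like cells (11 and 276 cells) and 0.13 in dendritic cell-like cells (6 and 205 cells), and Fcgr3 in dendritic cell-like cells turned to 0.17 with each cell thinned to 500 UMIs. NK cell or ILC-like cells had 31 Fcgr2b UMIs, 40.2 CPM, in the Tet2-/- library and 96 UMIs, 71.1 CPM, in the Tet2+/+ library, 1.77-fold lower (1.17 to 2.75), where 3.72% of 2960 genes were lower. That direction turned when cells with high doublet scores were removed or cells were typed singly, to log2 ratios of 0.34 and 0.28.

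Macrophage-like cells had no pair past the rule. Fcgr1 came nearest, at 193 CPM in the Tet2-/- library and 274 CPM in the Tet2+/+ library, 1.42-fold lower (1.33 to 1.52). The cluster led by C1qa had 202 and 302 CPM, whereas the smaller one led by Ccl8 had 95.1 and 80.6 CPM with a ratio of 1.18 (0.854 to 1.63). Fcgr2b, Fcgr3 and Fcgr4 were 1.10-, 1.09- and 1.27-fold lower, and Fcgrt had a ratio of 1.06 (0.960 to 1.18).

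**Figure D4:**
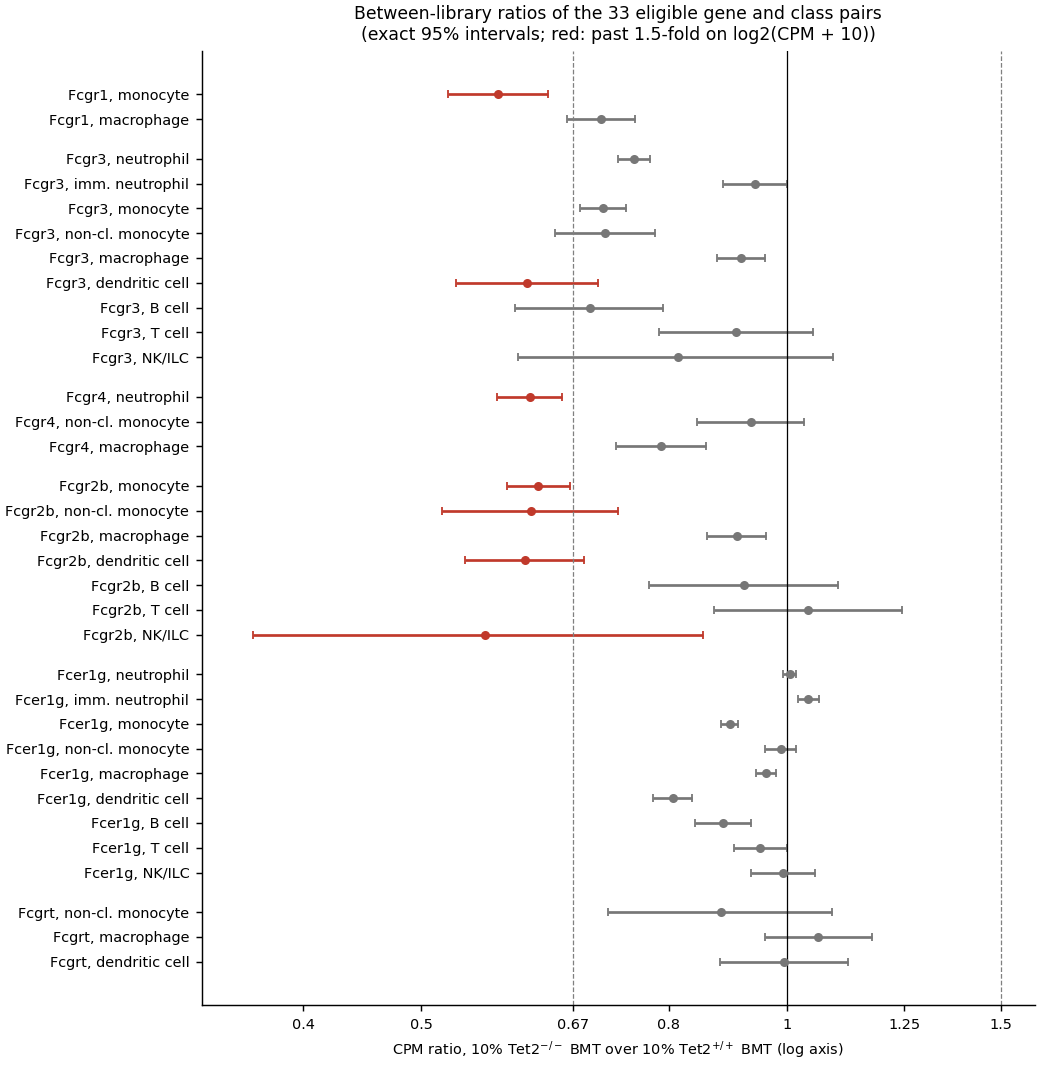
Ratios of CPM, Tet2-/- over Tet2+/+ (log x axis), are plotted for the 33 eligible gene and class pairs with exact 95% intervals, dashed lines at 1.5-fold and red points for the 7 pairs past the size rule. All 7 lie on the side of lower Tet2-/- levels, and the Fcer1g ratios lie between 0.806 and 1.04.

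The balance differed less between libraries than between classes. For neutrophil-like cells the ratio of balances, Tet2-/- over Tet2+/+, was 0.895 (0.771 to 1.04). It was 1.11 (1.04 to 1.20) for monocyte-like, 0.911 (0.854 to 0.973) for macrophage-like and 0.979 (0.836 to 1.15) for dendritic cell-like cells. The largest departures among myeloid classes were 1.29 (1.08 to 1.55) in non-classical monocyte-like cells and 0.854 (0.749 to 0.974) in immature neutrophil-like cells. Once free RNA was subtracted at the amount seen in B cells, the neutrophil-like log2 difference was 0.48 in place of -0.16. Among Y-carrying cells of both libraries the log2 difference was 0.90 in neutrophil-like, -0.31 in monocyte-like and 0.20 in macrophage-like cells, each with its sign turned. On the Tet2-/- side these rest on 175, 11 and 165 cells with 10, 43 and 522 Fcgr2b UMIs, and no intervals are given for them.

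The Tet2-/- library itself held cells with Xist and cells with Y-linked transcripts, whose origin the labels do not give. Many of its cells showed neither, 3054 of 4186 neutrophil-like and 230 of 800 macrophage-like cells, and 14 and 56 showed both. Macrophage-like cells with neither had 168 CPM of Fcgr1 and 492 CPM of Fcgr3. Among its macrophage-like cells, the 349 with Xist alone had 176 CPM of Fcgr1 and the 165 with Y-linked transcripts alone had 246 CPM, a ratio of 0.714 (0.638 to 0.7999). Fcgr3 was 364 and 484 CPM, a ratio of 0.753 (0.695 to 0.816), while Fcgr2b was 286 and 265 CPM, a ratio of 1.08 (0.976 to 1.20). Fcgr4 was 110 and 101 CPM, a ratio of 1.08 (0.918 to 1.28). Fcgrt was 83.0 and 118 CPM, a ratio of 0.702 (0.596 to 0.829). These cells had medians of 12459 and 11111 UMIs. Y-carrying macrophage-like cells of the Tet2+/+ library had 275 CPM of Fcgr1 and 455 CPM of Fcgr3. In neutrophil-like cells of the Tet2-/- library Fcgr3 was 290 CPM with Xist and 442 CPM with Y-linked transcripts, a ratio of 0.655 (0.590 to 0.729), and Fcer1g was 1852 and 2559 CPM, a ratio of 0.724 (0.693 to 0.756). Fcgr4 was 73.6 and 95.5 CPM, a ratio of 0.771 (0.617 to 0.971), and its interval included 1 within each neutrophil-like cluster. Of those neutrophil-like cells 191 of 943 with Xist and 95 of 175 with Y-linked transcripts were in the cluster led by Acod1, which has the highest Fcgr3 level. In that cluster Fcgr3 was 393 and 574 CPM, a ratio of 0.685 (0.585 to 0.802), and in the 4 other neutrophil-like clusters, with 7 to 33 Y-carrying cells, every Fcgr3 interval included 1. Among monocyte-like cells 905 carried Xist alone and 11 Y-linked transcripts alone, with 46.1 and 83.9 CPM of Fcgr1 and 118 and 226 CPM of Fcgr2b. These are cells of 1 library, so the intervals do not measure variation between animals.

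Few genes of the signalling and regulator lists were past the 1.5-fold rule. Other antibody receptors (1 of 1) and antibody chains (3 of 4) in macrophage-like cells are given apart below. Of all eligible genes 5.00% were past it in either direction in neutrophil-like, 2.68% in monocyte-like and 2.19% in macrophage-like cells. The signalling and regulator lists had at most 1 gene past it in each class, too few to set against those shares. None of 23 eligible ITAM signalling genes, which include Syk, Lyn and Tyrobp, was past it in these 3 classes, in that order with median log2 ratios of -0.07, -0.04 and -0.11 against -0.06, 0.05 and -0.02 over all eligible genes. Of inhibitory signalling genes 0 of 16, 0 of 14 and 1 of 16 were past it, the 1 being Cd300lf in macrophage-like cells, at 77.2 CPM in the Tet2-/- library and 124 CPM in the Tet2+/+ library, 1.602-fold lower (1.45 to 1.77). Receptors that signal through Fcer1g had 0 of 5, 0 of 3 and 0 of 4, with median log2 ratios of 0.30, 0.13 and -0.33. Of the list of receptor regulators 0 of 13, 1 of 15 and 0 of 17 were past it. The 1 was Cebpa, a myeloid transcription factor, at 42.3 and 88.7 CPM in monocyte-like cells, 2.10-fold lower (1.91 to 2.31). Cebpa was past the rule in non-classical monocyte-like cells too, at 23.5 and 53.0 CPM, and in dendritic cell-like cells, at 31.4 and 68.5 CPM. It was not alone outside these 3 classes. Pik3r5 and Siglece were 1.73- and 1.78-fold lower in non-classical monocyte-like cells, and Clec4d had a ratio of 2.06 in immature neutrophil-like cells. In NK cell or ILC-like cells 3 of 22 ITAM signalling genes were lower by the rule, where 3.72% of 2960 eligible genes were. B2m, the partner of Fcgrt, was inside the rule in the 3 main classes, with ratios of 0.868 to 0.917.

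Of the other antibody receptors only Fcrls was eligible in the 3 main classes, in macrophage-like cells, at 406 CPM in the Tet2-/- library and 236 CPM in the Tet2+/+ library, but it is also a leading gene of the C1qa cluster. Of 4 eligible antibody chains in macrophage-like cells, Ighg2b, Jchain and Igkc were higher in the Tet2-/- library. Ighg2b had 398 and 1.12 CPM, and 1 barcode held 97.6% of its UMIs in that library. Likewise 1 barcode of the Tet2+/+ library held 98.6% of the Igha UMIs of immature neutrophil-like cells. So these antibody chain values describe single barcodes and not the classes.

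The genes most like each receptor, by Pearson's r of log2(CPM + 10) over 18 points (9 classes in each library, which share depth and library) among 4644 genes, are given as a description. For Fcgr1 they were Tmem106a (0.97), Cebpa (0.96), Glul (0.96), Ms4a6d (0.94) and Ccl2 (0.94). Fcgr3 was nearest to Mknk1 (0.94), Sec14l1 (0.91), Hacd4 (0.90), Lamp2 (0.90) and Hmox1 (0.89), and Fcgr4 to Sec14l1 (0.92), Slc11a1 (0.88), Taok1 (0.85), Cd300ld (0.84) and Arap1 (0.84). For Fcgr2b, Cmtm3, Ms4a6d, Ifi211 and Anxa4 were among the nearest, all at 0.94. Fcer1g was nearest to Ppp1r12c (0.89), Map7d1 (0.87), Tyrobp (0.87), Rnasek (0.84) and Vamp3 (0.82), of which Tyrobp encodes the other ITAM adaptor of myeloid cells. Fcgrt was nearest to Tbc1d9 (0.97), Cst3 (0.97), Fgd2 (0.96), Slamf8 (0.96) and Clec4b1 (0.95). Among the 6 genes themselves, r was 0.91 between Fcgr1 and Fcgr2b, 0.85 between Fcgr2b and Fcgrt and 0.73 between Fcgr3 and Fcgr4, and under 0.1 between Fcgr4 and Fcgr2b.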

How the data were processed

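Per the labels, libraries were made with a 10x Chromium 3′ kit. The genome build mm10 and Cell Ranger 6.1.2 come from the submitters' processing notes, whereas per the file headers the matrices were written by version 4. The deposited values are raw UMI counts per gene and barcode, empty barcodes included; no normalization was applied by the authors to these counts. From them, 9596 and 11672 cells were kept. Counts were log-scaled per cell, 2000 variable genes without the 6 members and 30 principal components were taken, and cells were clustered (20 neighbours, Leiden resolution 1, seed 1) with scanpy 1.11.5, leidenalg 0.10.2 and Python 3.11.15. A cluster was named from 20 marker lists when at least 3 markers were in 10% of its cells with a log2 excess of 0.5, thresholds that were set when the clusters were seen. No doublet caller was applied; a score from simulated doublets among each cell's neighbours served as an alternative.

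UMIs were summed per class and library and scaled to CPM of the class total. A 3′ UMI count carries no gene length. The size rule is 1.5-fold on log2(CPM + 10) among genes with 50 CPM in either library and 100 UMIs over both. Free RNA was taken from barcodes with 1 to 50 UMIs. Depth was 85289763 and 87908757 kept UMIs, and intervals and limits (3 counts for a count of 0) cover counting error only. The ratio and call steps were tested on simulated counts.

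Named genes are the 6 members in every named class with 50 cells in each library, the 5 genes most like each, and at most 4 genes a list and class past the size rule in neutrophil-like, monocyte-like and macrophage-like cells. Cebpa, Pik3r5, Siglece and Clec4d in other classes and Igha in immature neutrophil-like cells were added after their values were seen. For Fcgr2b, 1 of its 5 is not reported here. Members, lists and tests were chosen with earlier results of these data known. Alternatives covered filters, clustering, doublets, free RNA, sex-linked transcripts, scaling, depth and pseudocount, and 3 were added after seeing the data.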

Additional observations from a re-analysis of the deposited data

How the results depend on the processing

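No paired analysis was possible because each group has 1 library; for the same reason no replicate could be left out. The count of 7 lower pairs became 4 with a minimum of 1000 UMIs, 1 with each cell typed alone, 2 among Y-carrying cells of both libraries, 4 with the cluster mix fixed and 4 with the mean of per-cell CPM; the count of 0 higher pairs became 3 among Y-carrying cells and 1 when thinned to 500 UMIs. Of 22 alternatives, Fcgr1 in monocyte-like cells stayed past the size rule in 20, Fcgr2b in monocyte-like and non-classical monocyte-like cells in 19 each, and Fcgr4 in neutrophil-like cells, Fcgr3 and Fcgr2b in dendritic cell-like cells in 16 each; Fcgr2b in NK cell or ILC-like cells did so in 16 of 21, since that class did not form at resolution 0.5.

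Log2 ratios turned positive among Y-carrying cells of both libraries for Fcgr1 (0.067) and Fcgr2b (0.23) in monocyte-like cells, where the Tet2-/- library has 11 such cells, and for Fcgr2b in non-classical monocyte-like (0.11) and dendritic cell-like cells (0.13). Fcgr3 in dendritic cell-like cells was 0.17 at 500 UMIs, and Fcgr2b in NK cell or ILC-like cells 0.28 with cells typed alone and 0.34 with the 8% highest doublet scores removed.

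The log2 difference in balance was -0.16 in neutrophil-like cells, and 0.48 with free RNA subtracted at the level of B cells, -0.58 for Xist-carrying cells of the Tet2-/- against Y-carrying cells of the Tet2+/+ library, 0.90 among Y-carrying cells and -0.38 for Fcgr4 alone; both planned free RNA subtractions left no Fcgr2b there and gave no value. In monocyte-like cells it was 0.16, and 0.30 with free RNA of barcodes with 51 to 200 UMIs subtracted, -0.31 among Y-carrying cells, 0.39 at 500 UMIs and 0.55 for Fcgr4 alone. In macrophage-like cells it was -0.13, and -0.27, 0.20, -0.42 and 0.012 for Xist-carrying against Y-carrying cells, Y-carrying cells, 500 UMIs and Fcgr3 alone. Unthinned detection shares kept the leading class of 3 of 6 genes. The causes were not tested.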
